A study of Mus musculus with 2 samples.

Results

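Plasmacytoid dendritic cells (pDC) were looked for in single-cell RNA counts from CT26 mouse colon tumours, and 80 of 25937 barcodes met the definition, 12 from control tumour and 68 from tumour treated with the SLC7A11 antibody. A barcode was taken as pDC when it held at least 2 UMIs (unique molecular identifiers, here counted transcript molecules) of Siglech and at least 1 UMI of Ccr9, Tcf4, Bst2 or Cox6a2. It also had to have under 20% mitochondrial UMIs, at most 1 UMI of the tumour gene Hmga2, under 2000 CPM (UMI counts scaled to a fixed total) of the C1q genes of macrophages, and no UMI of the T cell genes Cd3d, Cd3e and Cd3g. The 5 pDC markers chose the barcodes, so their own levels, and all levels of pDC against other barcodes, are descriptions without a test.

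Plasmacytoid dendritic cells are immune cells of the dendritic lineage that look like antibody-secreting cells and are known for sensing viral RNA and DNA in endosomes through TLR7 and TLR9. On activation they release large amounts of type I interferon, while in tumours they are often described as poorly stimulatory. The transcription factor Tcf4 (E2-2) sets their identity, Siglech and Bst2 are surface proteins of mouse pDC, Ccr9 is a gut-homing chemokine receptor and Cox6a2 is a respiratory chain subunit otherwise known from muscle.

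CT26 is an established mouse colon carcinoma line. Tumours of 50 to 100 mm3 were treated every 2 days with 10 mg/kg of either anti-IgG (the control group) or SLC7A11-Ab, an antibody against the light chain of a transporter that takes up cystine in exchange for glutamate, and 1 library per group was made from dissociated tumour. The design text names the cecal junction as the injection site but also speaks of subcutaneous growth, and mouse strain, sex, age and number of mice per library are not given in the sources used here. The labels name goblet cells as the cell type of both libraries, but the goblet cell gene Tff3 had 0 and 2 UMIs and Muc2 had 6 and 6 UMIs in control and antibody, in that order, and none of the 6 goblet genes looked up had a UMI in a pDC barcode.

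With 1 library per group no difference between the groups has a replicate check, and no p-value is given. The 95% intervals are exact (Clopper-Pearson for shares, conditional binomial for ratios of counts) and cover counting error only. The libraries held 13910 and 12153 barcodes with 129044329 and 143658800 UMIs. They shared 39 barcode sequences, and none of these was a pDC barcode.

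One control barcode stood apart before any comparison. The deepest of the 12 control pDC barcodes held 18241 of their 39328 UMIs, 257 of these from the fibroblast genes Col1a1, Col1a2 and Dcn, and none from the leukocyte gene Ptprc. It was also the only control pDC barcode that the doublet caller Scrublet would remove. Scrublet would also remove 3 antibody pDC barcodes. The other 11 control barcodes ranged from 1140 to 2912 UMIs. In the antibody library 2 of 68 pDC barcodes had at least 5 UMIs of these fibroblast genes, with 7 and 150 UMIs, and both were among those 3. The third, with 9641 UMIs the deepest antibody member, had 54 proliferation UMIs and was kept. Results that rest on summed counts are therefore given with all members and again with 11 control and 66 antibody barcodes, called here the members without stromal transcripts. That rule was set after seeing the data.

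The 250 bases upstream of the annotated start are shown for 4 genes, the 3 rule markers with a window in the table and Klk1, the gene that led the comparison with other immune cells. Capitals mark the E-box CAGGTG or CACCTG, a motif that E proteins such as Tcf4 can bind, and in Bst2 also the paired GAAA letters of the interferon-stimulated response element. The sequences are from RefSeq on GRCm38.p6, the patch release of mm10, written in the direction of the gene. Siglech lies at chr7:55767934-55768183 on the plus strand, Ccr9 at chr9:123766961-123767210 on the plus strand, Bst2 at chr8:71537473-71537722 on the minus strand and Klk1 at chr7:44225110-44225359 on the plus strand.
Siglech: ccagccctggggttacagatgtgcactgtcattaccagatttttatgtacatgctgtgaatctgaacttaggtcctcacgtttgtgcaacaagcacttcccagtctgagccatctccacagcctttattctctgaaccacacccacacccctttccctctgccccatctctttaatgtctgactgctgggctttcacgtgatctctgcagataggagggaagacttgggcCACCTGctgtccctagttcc
Ccr9: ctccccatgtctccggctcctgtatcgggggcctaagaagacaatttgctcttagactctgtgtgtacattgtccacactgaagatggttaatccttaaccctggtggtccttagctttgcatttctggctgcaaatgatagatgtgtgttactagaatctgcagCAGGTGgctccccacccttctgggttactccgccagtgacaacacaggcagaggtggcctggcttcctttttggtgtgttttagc
Bst2: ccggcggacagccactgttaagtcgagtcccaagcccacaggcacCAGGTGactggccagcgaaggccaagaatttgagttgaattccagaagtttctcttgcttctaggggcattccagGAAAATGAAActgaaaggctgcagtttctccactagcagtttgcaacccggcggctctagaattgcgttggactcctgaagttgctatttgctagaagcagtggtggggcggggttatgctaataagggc
Klk1: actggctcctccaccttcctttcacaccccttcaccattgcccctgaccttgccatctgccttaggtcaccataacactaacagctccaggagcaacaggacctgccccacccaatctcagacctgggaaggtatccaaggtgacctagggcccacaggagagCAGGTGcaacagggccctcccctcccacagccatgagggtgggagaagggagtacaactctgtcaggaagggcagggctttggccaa

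Of the 5 rule markers and the 20 leading pDC genes described below, 19 of 25 had a window. CAGGTG or CACCTG, the same motif on either strand, was in 8 of these 19 (42.1%) and in 17.1% of all 27025 windows of the same length. The other E-box CAGCTG, which reads the same on both strands, was in 2 of 19 (10.5%) against 12.8% of all windows. The interferon-stimulated response element, searched as GAAA, any 2 letters and GAAA or the reverse complement, was in 3 of 19 (15.8%) against 3.04% of all windows. All motifs were searched on both strands, and a window counts once. Matches were marked without overlap, so in Bst2 the GAAA that lies 2 letters after the marked paired GAAA letters is not in capitals. A match is a description of these letters and not a binding site.

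The barcodes carried the pDC programme beyond the genes that chose them. A list of 26 further pDC genes was used, chosen with earlier results of these data known, so this is a description. Of these 26 genes, a control member held a median of 15 (range 11 to 19) and an antibody member a median of 16 (range 8 to 21). Just inside the Siglech limit, the 1 control and 12 antibody barcodes with exactly 2 Siglech UMIs held medians of 15 and 14 of these genes. Just outside it, the 1 control and 10 antibody barcodes with 1 Siglech UMI that met every other condition held 3 and a median of 7.5, so the antibody library has pDC-like barcodes below the limit. The 2424 control and 2749 antibody barcodes with no Siglech UMI had medians of 1 and 2.

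The markers were spread over the members rather than held by a few. For Siglech the definition fixed this with at least 2 UMIs in every member. It also asked for at least 1 UMI of the other markers together, so these levels are a description. Siglech ranged from 2 to 10 UMIs with a median of 6 in the control members, and from 2 to 16 with a median of 5 in the antibody members. Tcf4 had 1 to 13 UMIs with a median of 7 in control members and 1 to 18 with a median of 7 in antibody members. Bst2 had 6 to 47 UMIs with a median of 18.5, and 3 to 46 with a median of 26. Ccr9 was found in 9 of 12 and 62 of 68 members, and Cox6a2 in 9 of 12 and 60 of 68. Every pDC barcode thus held Tcf4 and Bst2 next to Siglech, and the few without Ccr9 or Cox6a2 were in both libraries.

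Siglech was not confined to the members. At least 1 Siglech UMI was present in 0.0529% of control tumour barcodes (at least 2 Hmga2 UMIs and no Ptprc) and in 0.793% of antibody tumour barcodes, at median depths of 9946.5 and 15709 UMIs. The pDC barcodes had median depths of 1886 and 3223 UMIs. At least 2 Siglech UMIs were present in 0 of 9460 control tumour barcodes and in 2 of 5294 antibody tumour barcodes. Of the barcodes with at least 2 Siglech UMIs, 14 from control and 95 from antibody tumour, 2 and 22 were left out for Hmga2, 0 and 2 for C1q and 0 and 3 for Cd3.

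Defining transcripts of most other cell types summed to few UMIs. The definition itself set Cd3d, Cd3e and Cd3g of the T cell list to 0 and capped C1qa, C1qb and C1qc of the macrophage list. Low counts of these genes were therefore fixed in advance. Over the 12 control and 68 antibody members, the 7 B cell genes summed to 0 and 7 UMIs, the 6 NK cell genes to 0 and 13, the 6 neutrophil genes to 0 and 14, the 8 macrophage genes to 2 and 66 and the 6 cDC1 genes to 1 and 24. The macrophage genes were found in 2 of 12 and 38 of 68 members, at 50.9 and 289 CPM against 17580 and 12388 CPM in other immune barcodes. The B cell genes stood at 0 and 30.7 CPM against 26.2 and 14.6 CPM there, and the cDC1 genes at 25.4 and 105 against 111 and 134 CPM. In the antibody library neither of these lists was thus far below other immune barcodes. Trac had no UMI in any member, and Cd8a supplied 4 of 4 and 30 of 35 UMIs of the T cell list. Of the 13 NK UMIs, 12 were in a single antibody barcode, and of the 14 neutrophil UMIs 10 were. The fibroblast and endothelial genes summed to 267 and 224 UMIs, of which 257 and 150 were in 1 barcode each. The 7 cDC2 and mature DC genes summed to 13 and 76 UMIs, in 8 of 12 and 39 of 68 members, most of them from Cd209a, Sirpa and Fscn1. Their level was 331 and 333 CPM in pDC and 402 and 328 CPM in other immune barcodes, and their part in the results was not tested. The 8 monocyte genes summed to 314 and 2470 UMIs, of which 213 and 2071 were from Plac8 and 40 and 285 from Ly6c2, genes that pDC also express. They ranged over members from 62.9 to 123 UMIs per 10000 in the control and from 14.5 to 237 in the antibody library.

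**Figure D1:**
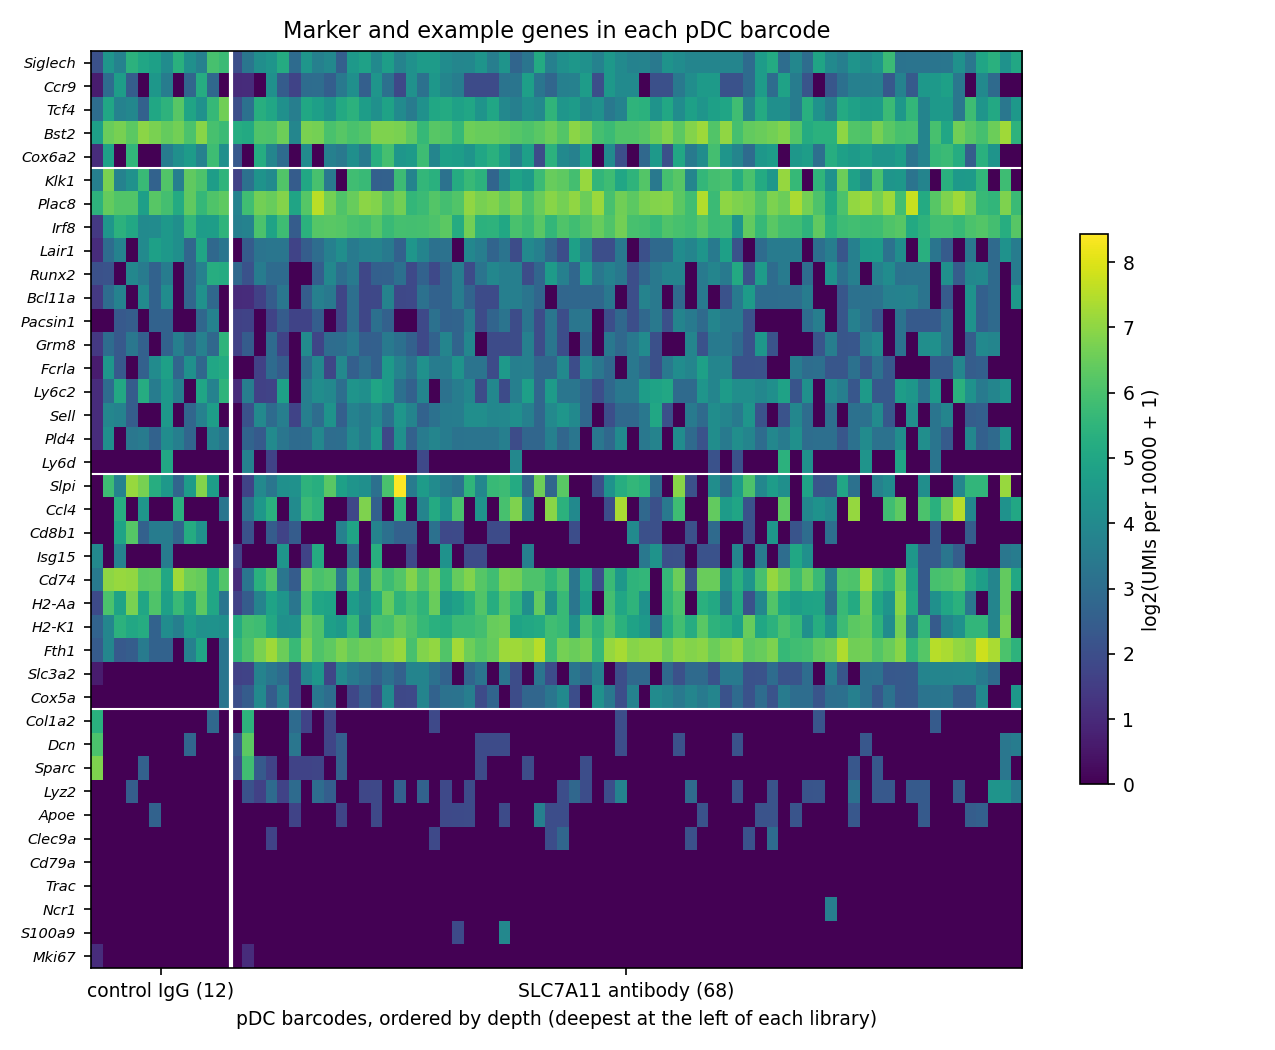
Levels of 39 genes in each pDC barcode, as log2 of UMIs per 10000 plus 1; columns are barcodes (12 control, 68 antibody), ordered by depth within each library, and rows are the rule markers, further pDC genes, example genes of the comparisons, and genes of other cell types. The deepest control barcode at the far left carries Col1a2, Dcn and Sparc, and Fth1, Slc3a2 and Cox5a are brighter on the antibody side.

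The genes that set the members apart from other immune barcodes are a description, because the members were chosen by expression. Of 2483 genes with at least 20 UMIs over all members, 221 were at least 4-fold higher in pDC than in other immune barcodes (at least 1 Ptprc UMI) in both libraries, 8.9% of the genes tested. Of the same genes 9 (0.362%) were at least 4-fold lower in both. Genes with few UMIs in pDC were not tested, which limited the number of lower genes in advance. The 2 numbers are therefore not to be compared. Of the list of further pDC genes, chosen with earlier results of these data known, 25 were tested and 23 were among those at least 4-fold higher.

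Klk1, a kallikrein serine protease, led the order. It was found in 12 of 12 control and 63 of 68 antibody members, and its summed level in pDC was 3026 CPM (control) and 3594 CPM (antibody). In other immune barcodes it stood at 1.07 and 12.5 CPM, and 0.042% and 1.02% of tumour barcodes held a UMI of it. Members ranged from 5.28 to 106 Klk1 UMIs per 10000 among control members (median 34.3) and from 0 to 139 among antibody members (median 35.2), so the libraries overlapped throughout. The related kallikreins Klk4 and Klk1b27 were also among the 20 leading genes. Reads of near-identical kallikrein genes can be split or dropped in counting, so the share of each of these 3 is uncertain.

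The other leading genes had mixed roles. Bcl11a, a transcription factor needed for pDC development, stood at 509 and 587 CPM in pDC against 1.07 and 4.35 CPM in other immune barcodes. Grm8, a glutamate receptor, stood at 534 and 596 CPM against 3.21 and 4.35 CPM. Pacsin1, an adaptor of vesicle transport, was found in 6 of 12 and 54 of 68 members, and in 0.074% and 0.491% of tumour barcodes. Slpi, a secreted protease inhibitor, stood at 2746 and 2840 CPM against 19.5 and 54.0 CPM. Kmo and Kynu, enzymes of tryptophan breakdown along the kynurenine route, were both on the list, Kmo at 381 and 346 CPM in pDC and Kynu at 76.3 and 307 CPM. Rnase6, a ribonuclease, was the leading gene most shared with another class: it stood at 2466 and 2902 CPM in pDC and at 1019 and 511 CPM in cDC1-like barcodes. The remaining leading genes were Smim5, Sh3bgr, Atp2a1, Paqr5, Cacna1e, Tmem108, Fcrla, Upb1, Atp1b1 and Lefty1.

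**Figure D2:**
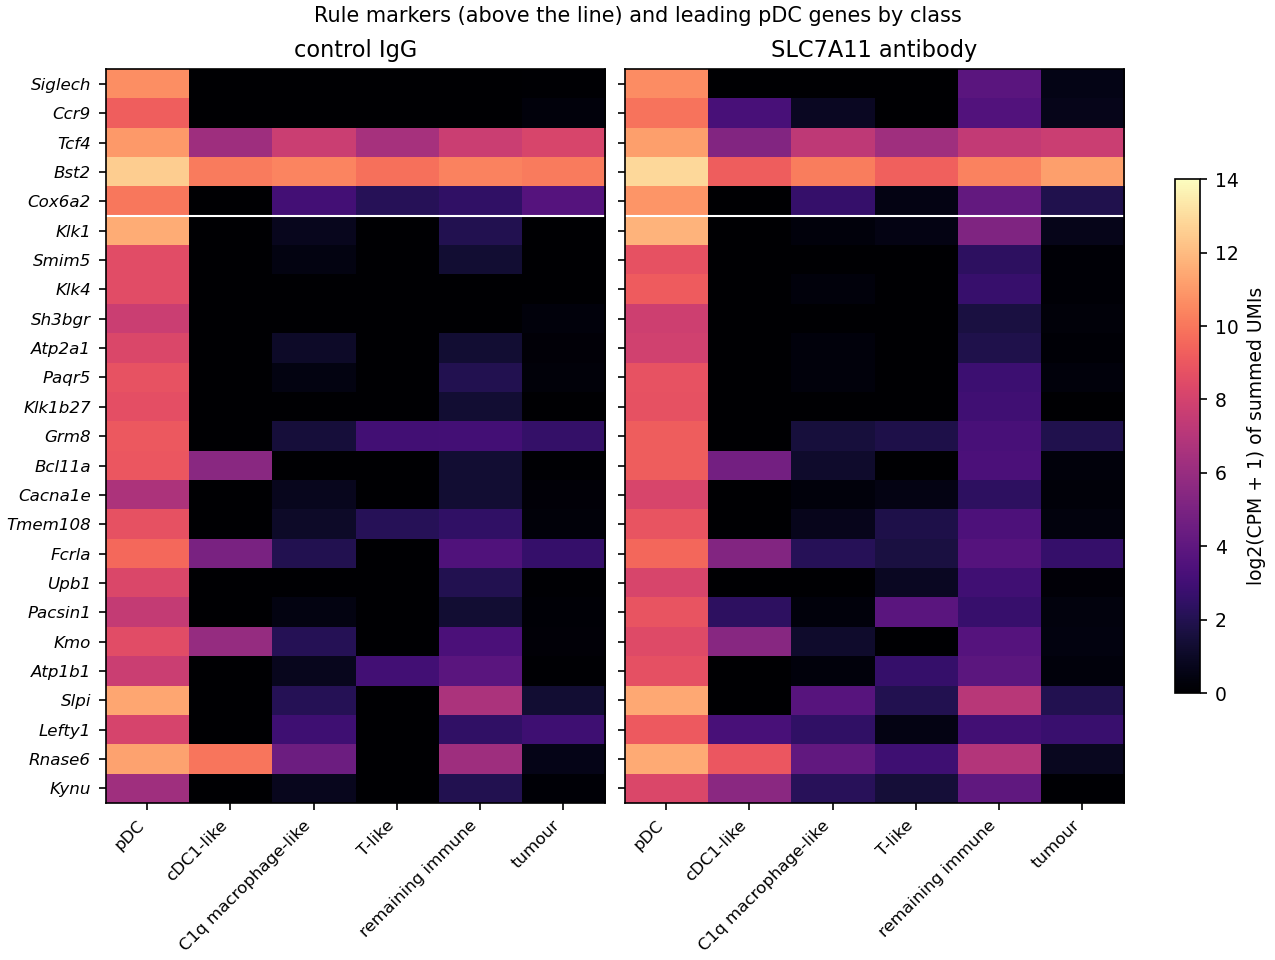
Summed level as log2(CPM + 1) of the 5 rule markers and the 20 leading pDC genes in 6 classes of barcode (remaining immune are those in none of the other immune classes), control library on the left and antibody library on the right. The pDC column is bright in both libraries for every gene, whereas Tcf4 and Bst2 were also present at lower levels in the other classes and Rnase6 in cDC1-like barcodes.

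pDC made up a larger share of the antibody library. They were 0.0866% of control barcodes (12 of 13864, interval 0.0447 to 0.151) and 0.563% of antibody barcodes (68 of 12073, interval 0.438 to 0.714), a ratio of 6.51 (log2 2.70, interval 1.80 to 3.72). Tumour barcodes were a smaller part of the antibody library (43.8% against 68.2%), which enters every share of all barcodes. Among immune barcodes, pDC with a Ptprc UMI were 0.951% in the control (10 of 1052, interval 0.457 to 1.74) and 2.32% in the antibody library (61 of 2625, interval 1.78 to 2.98). That ratio was 2.44 (log2 1.29, interval 0.31 to 2.42).

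The immune share was also computed at equal depth. When every barcode was thinned to 1000 UMIs before the definition was applied, which leaves out shallower barcodes, pDC were 1.26% of control immune barcodes (7 of 554) and 1.44% of antibody immune barcodes (20 of 1392), a log2 ratio of 0.19 with an interval (-1.11 to 1.67) that holds both 0 and the value before thinning. Thinning kept 8 of 12 control members but 30 of 67 antibody members within the definition. The share of all barcodes still had a log2 ratio of 2.32 after thinning. Antibody members were also deeper before thinning, at a median of 3223 against 1886 UMIs, and the part of depth in the immune share was not tested further.

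Shares of the other immune classes were compared in the same way. T-like barcodes (at least 2 Cd3 UMIs) were 11.98% of control and 25.1% of antibody immune barcodes, and macrophage-like barcodes (at least 2000 CPM of C1q genes) 57.1% and 26.9%. cDC1-like barcodes (at least 2 UMIs of Clec9a and Xcr1) were 1.52% and 1.14%, and the log2 ratio was -0.41 (interval -1.33 to 0.56). For each 100 T-like barcodes there were 9.52 control and 10.3 antibody pDC. For each 100 macrophage-like barcodes there were 2.00 and 9.62 pDC, and for each 100 cDC1-like barcodes 75 and 227. The number of pDC for each T-like barcode was thus close in these 2 libraries, and the number for each macrophage-like or cDC1-like barcode was not. Immune barcodes in none of these classes numbered 299 and 1168 (28.4% and 44.5% of immune barcodes), beside 12 and 68 pDC. The number of pDC for each of them differed less than for macrophage-like or cDC1-like barcodes.

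**Figure D3:**
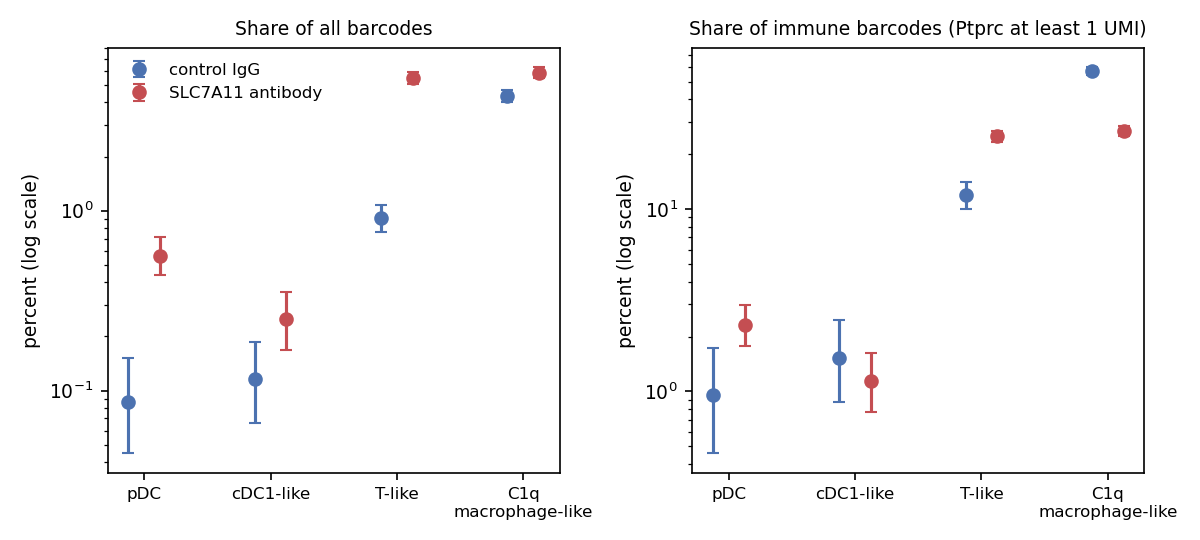
Shares of pDC, cDC1-like, T-like and macrophage-like barcodes among all barcodes (left) and among immune barcodes (right), on log axes, with points for each library and bars for exact 95% Clopper-Pearson intervals. The pDC and T-like points are higher in the antibody library on both axes, and the intervals of the immune share of pDC do not overlap.

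Gene levels inside the pDC were compared as sums over members. Of 2483 genes, 394 (15.9%) were at least 2-fold higher and 252 (10.1%) at least 2-fold lower in the antibody pDC, and 163 (6.56%) and 149 (6.0%) of these also had an interval off 0. In other immune barcodes 10.4% of the same genes were at least 2-fold higher and 1.09% lower. Of the 163 higher genes 53.4% were also 2-fold higher there, and of the 149 lower genes 4.03% were 2-fold lower there. Without the members with stromal transcripts, 2194 genes were tested, of which 311 (14.2%) were higher and 249 (11.3%) lower, and 75 (3.42%) and 65 (2.96%) had an interval off 0. Of these 2194 genes, 10.8% were 2-fold higher and 0.957% lower in other immune barcodes. Of the 394 and 311 higher genes, 67 and 167 had 0 UMIs in the control sum. Such genes were counted as higher from the ratio with a small count added to each sum, which is no bound. The counts for the gene lists below were made in the same way. Where such a gene is named on its own, its ratio is given as a lower bound that sets the control sum at 3 UMIs, unless stated otherwise.

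The members' counts lean on 1 barcode for the lower genes. Higher genes also changed, from 163 with an interval off 0 to 75 without the members with stromal transcripts. The 12 named genes lower in the antibody sum were Sparc, Col3a1, Cxcl1, Col1a2, Dcn, Ifitm3, Mt2, Fn1, Serpinh1, Cd63, Spp1 and Mt1. The deepest control barcode held 199 of the 200 control Sparc UMIs, 136 of 136 for Col3a1, 119 of 120 for Dcn and 84 of 88 for Ifitm3. For Serpinh1, 55 of the 56 control UMIs were in 1 barcode, and for Mt2 all 49 were. With the members with stromal transcripts left out Ifitm3 had a log2 ratio of 0.42 and Serpinh1 of 0.95. Both are positive but rest on few control UMIs, so no change of direction is read from them. Mt2 then had no control UMI left. Its value of 2.14 rests on the small count added to each sum, is no bound and shows no direction. None of the 12 is taken as a difference between pDC of the 2 libraries.

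Of the 12 named higher genes, 11 also had ratios above 0 in the other immune and tumour barcodes of the antibody library. Ccl4, described below, was lower in other immune barcodes. Fth1, the heavy chain of the iron store ferritin, had 0 to 30.3 UMIs per 10000 in control members (median 5.30) and 42.6 to 221 in antibody members (median 99.7). Every antibody member was above every control member. The log2 ratio of the sums was 3.92 (interval 3.39 to 4.56), and 3.57 without the members with stromal transcripts. It was 3.59 in other immune barcodes and 3.82 in tumour barcodes.

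This was also so for Pfn1, an actin-binding protein, with log2 ratios of 3.99 in pDC, 3.72 in other immune and 4.13 in tumour barcodes. Tpt1, a growth-related protein, stood at 3.22, 3.52 and 3.68. Itm2b, a membrane protein, stood at 2.06, 2.75 and 2.56. Chchd2, a mitochondrial protein, stood at 3.59 (from 2 control UMIs, interval 2.03 to 6.96), 3.18 and 3.06. Cox5a, a respiratory chain subunit, stood at 4.15 (from 1 control UMI, interval 2.23 to 10.0), 5.31 and 5.56. Tomm20, Pgls and Sdf2l1 had no UMI in control pDC and were higher by a log2 ratio of at least 2.48, 2.39 and 2.01 (1.54, 1.54 and 1.17 without the members with stromal transcripts), and in tumour barcodes they stood at 4.32, 3.80 and 3.95. Junb, an immediate early transcription factor, stood at 3.46 in pDC (from 1 control UMI, interval 1.52 to 9.35), 5.13 in other immune and 5.29 in tumour barcodes. Its only control UMI was in a member with stromal transcripts, and without these its bound was 1.54.

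Counted over genes, the pattern was broad. Of the 75 genes higher with an interval off 0 in the members without stromal transcripts, 51 were also at least 2-fold higher in other immune barcodes and 54 (72%) in tumour barcodes. Among all genes tested with at least 20 UMIs in tumour barcodes, 14.3% were at least 2-fold higher there. Of these 75 genes, 40 were at least 2-fold higher in every class with enough counts (cDC1-like, macrophage-like, T-like, remaining immune and tumour). Of the 65 lower genes, 4 were also 2-fold lower in other immune barcodes and 0 in tumour barcodes.

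**Figure D4:**
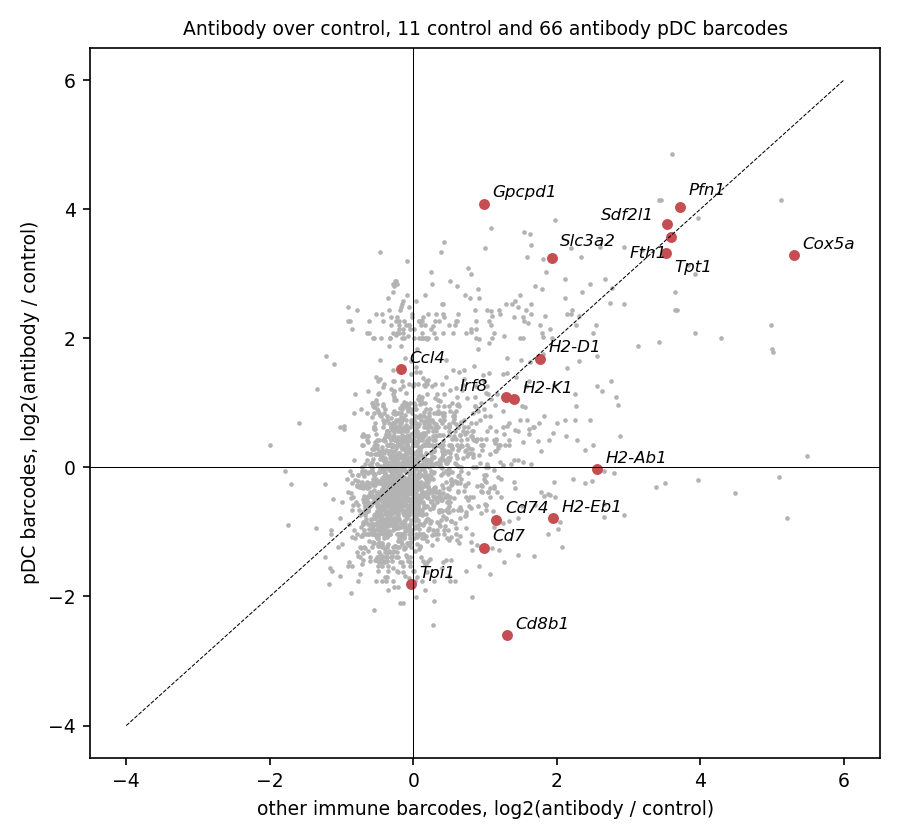
Log2 ratio of antibody over control for 2194 genes in pDC without the members with stromal transcripts (vertical) against the same ratio in other immune barcodes (horizontal), with named genes in red and the dashed line marking equal ratios. Genes with 0 control UMIs are drawn at the ratio with 0.5 added to each count, which is no bound. Fth1, Pfn1 and Tpt1 lie near the dashed line, Ccl4 and Gpcpd1 lie above it, and Cd8b1, Cd7 and the class II genes lie below it.

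The target's complex was measured through both of its subunits. Slc7a11, the light chain that the antibody binds, had 0 UMIs in the 12 control and 68 antibody members, which allows shares of up to 25% and 4.41% of members with a UMI, taking 3 counts as the limit that a count of 0 allows. In other immune barcodes 9.79% and 12.5% held a UMI of it, and in tumour barcodes 16.4% and 26.4%. Slc3a2, the heavy chain that it shares with other amino acid transporters, was found in 2 of 12 control and 58 of 68 antibody members, at 0 to 8.77 UMIs per 10000 (median 0) and 0 to 21.2 (median 6.33). Tumour barcodes held it in 51.6% and 88.5%. Its log2 ratio was 3.35 (from 2 control UMIs, interval 1.78 to 6.72) in pDC and 3.24 without the members with stromal transcripts. It stood at 1.93 in other immune and 1.75 in tumour barcodes.

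Of 22 cystine, glutathione and iron genes, 11 were tested, with a median log2 ratio of -0.19 beside 0.01 over all genes, and 3 were 2-fold higher and 2 lower. Without the members with stromal transcripts the median was 0.53 over 10 genes beside -0.13 over all, with 4 higher and 1 lower. The 0.53 became 0.24 when the 1 gene with 0 control UMIs was set at 3 control UMIs. The shares over all genes were 15.9% higher and 10.1% lower (14.2% and 11.3% without the members with stromal transcripts). Ftl1, the ferritin light chain, stood at -0.57 (interval -0.86 to -0.26), opposite to Fth1, and at -0.78 in other immune barcodes. Tfrc, the transferrin receptor, had 7 control and 19 antibody UMIs, and stood at -1.16 (interval -2.41 to 0.40), or at -1.76 (-3.07 to -0.07) from 6 and 19 UMIs without the members with stromal transcripts. Gpx4, which removes lipid peroxides, had 0 and 25 UMIs, a difference that the floor of 3 control UMIs bounds at a log2 ratio of at least 0.52 only. It was still among the 3 genes counted as 2-fold higher with all members.

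Of 17 transcription factors of the pDC programme 9 were tested, and Irf8 was the only one at least 2-fold different, with all members and without those with stromal transcripts. Irf8, needed for dendritic cell development, had 1.64 to 46.8 UMIs per 10000 in control members (median 22.8) and 4.503 to 99.2 in antibody members (median 59.1), with overlap in the lower part of the antibody range. Its log2 ratio was 1.84 (interval 1.47 to 2.25), and 1.08 (interval 0.71 to 1.503) without the members with stromal transcripts. In cDC1-like barcodes, which also depend on Irf8, it stood at 1.41 (interval 1.11 to 1.73), in macrophage-like at 1.22, in T-like at 0.71 and in tumour barcodes at 1.07. Bcl11a had a log2 ratio of 0.18, Runx2 0.20, and Spib, an Ets factor of pDC, 0.10, with intervals that include 0 with all members. Without the members with stromal transcripts the median of the 9 was -0.42. Tcf4, which chose the barcodes, had a log2 ratio of 0.14 with all members and -0.46 without those with stromal transcripts, given as a description.

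Ccl4, an inflammatory chemokine, was detected in 4 of 12 control and 45 of 68 antibody members. The control members ranged from 0 to 40 UMIs per 10000 with a median of 0, and the antibody members from 0 to 178 with a median of 14.4. Its log2 ratio was 2.36 (interval 1.77 to 3.10), and 1.52 (0.93 to 2.26) without the members with stromal transcripts. In other immune barcodes Ccl4 stood at -0.18 (interval -0.21 to -0.14), in T-like at 2.58, in cDC1-like at 0.20, in macrophage-like at -0.60 and in tumour barcodes at 1.16. A UMI of it was present in 5.22% of control and 19.3% of antibody tumour barcodes, against 33.3% and 66.2% of pDC. At 1000 UMIs per barcode these were 33.3% and 53.7% of pDC and 1.01% and 2.49% of tumour barcodes. Its neighbour Ccl3 had 1 control and 27 antibody UMIs in pDC, and of the 20 cytokine and chemokine genes only these 2 reached 20 UMIs.

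Gpcpd1, an enzyme of phospholipid turnover, had no UMI in control members and 90 UMIs over 51 of 68 antibody members, a log2 ratio of at least 2.37. A UMI of it was in 11.2% and 29.2% of tumour barcodes. The bound was 1.49 without the members with stromal transcripts. It stood at 0.98 in other immune barcodes and 0.97 in tumour barcodes. Creg1, a secreted glycoprotein of the lysosomal route, had 0 and 75 UMIs and a bound of 2.11 (1.24 without the members with stromal transcripts), but stood at 1.97 in other immune barcodes.

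No interferon transcript was seen. The 20 type I and III interferon genes of the list had 0 UMIs in the 12 control and 68 antibody members, and 5 of the 20 were listed in the tables at all (Ifna4, Ifna13, Ifnb1, Ifne and Ifnk). Over the 9 tested of 26 interferon-response genes the median log2 ratio was 0.31, with 3 genes 2-fold higher and 2 lower (0.21, 2 higher and 0 lower without the members with stromal transcripts). The 0.21 became -0.22 when the 1 gene with 0 control UMIs was set at 3 control UMIs. Over all genes 15.9% were 2-fold higher and 10.1% lower (14.2% and 11.3% without the members with stromal transcripts). Isg15, a ubiquitin-like interferon-response protein, was found in 3 of 12 and 29 of 68 members, and in 50.9% and 84.6% of tumour barcodes. Tumour barcodes were deeper (medians of 9946.5 and 15709 against 1886 and 3223 UMIs), so these shares do not rank its level. The Isg15 log2 ratio of -0.81 rested on the deepest control barcode, which held 27 of the 32 control UMIs. It was 0.94 (interval -0.20 to 2.72) without the members with stromal transcripts. Irf7, the factor that drives interferon genes in pDC, had a median of 7.24 UMIs per 10000 in control and 2.57 in antibody members. Its log2 ratio was -0.64 (interval -1.26 to 0.06), -0.95 (-1.65 to -0.10) without the members with stromal transcripts, and -0.62 in other immune barcodes.

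Sensing genes were thinly covered. Of 25 genes of endosomal and cytosolic nucleic acid sensing, 9 were tested and 0 were 2-fold different, with a median of 0.67, and of -0.12 without the members with stromal transcripts. Tlr7 was found in 2 of 12 and 22 of 68 members, and in 0.18% and 0.529% of tumour barcodes. Tlr9 was found in 0 of 12 and 2 of 68 members (2.94%), against 0.85% of antibody tumour barcodes, and its level is not readable at this depth. Unc93b1, which carries these receptors to endosomes, had a log2 ratio of 0.67 with all members and -0.12 without those with stromal transcripts, and Pld4, an endosomal nuclease, 0.68 and -0.05.

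The 4 MHC class II genes followed here were less than 2-fold different between the pDC of both libraries, while they were over 2-fold higher in the pooled other immune barcodes. Cd74, the invariant chain, ranged from 9.87 to 149 UMIs per 10000 in control members (median 82.0) and from 0 to 152 in antibody members (median 58.1), with full overlap. Its log2 ratio was -0.11 (interval -0.31 to 0.11), and -0.81 (-1.02 to -0.59) without the members with stromal transcripts, against 1.16 in other immune barcodes. H2-Aa stood at 0.18, -0.58 and 1.70 in the same order, H2-Eb1 at -0.00, -0.79 and 1.95, and H2-Ab1 at 0.75, -0.02 and 2.56. Of 25 interferon gamma response and class II genes 14 were tested, and 2 were 2-fold higher and 0 lower (15.9% and 10.1% over all genes). The median was 0.59 beside 1.37 for the same genes in other immune barcodes. Without the members with stromal transcripts the median was -0.10.

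The other classes differed among themselves in these genes. H2-Eb1 stood at 2.89 in macrophage-like and -0.21 in cDC1-like barcodes, and Cd74 at 1.82 and -0.38, so cDC1-like barcodes were near the pDC values. In tumour barcodes Cd74 stood at 4.15 and H2-Eb1 at 4.53. The makeup of the other immune barcodes also differed between libraries, and its part in their ratio was not tested. The differences between classes were not tested either.

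H2-K1 and H2-D1, classical MHC class I heavy chains, were higher in pDC, in other immune and in tumour barcodes of the antibody library. H2-K1 ranged from 5.28 to 41.3 UMIs per 10000 in control members (median 17.9) and from 0 to 102 in antibody members (median 42.9), with overlap. Its log2 ratio was 1.67 (interval 1.30 to 2.10) in pDC, 1.05 without the members with stromal transcripts, 1.41 in other immune and 2.00 in tumour barcodes. H2-D1 stood at 1.67, 1.68, 1.77 and 2.21. Of 18 genes of class I and peptide loading 15 were tested, 5 were 2-fold higher and 1 lower, and the median was 0.46 (3 higher, 2 lower and 0.10 without the members with stromal transcripts). Over all genes 15.9% were 2-fold higher and 10.1% lower (14.2% and 11.3% without those members). B2m, the class I light chain, stood at 0.45 (interval 0.16 to 0.75), and Pdia3, a chaperone of peptide loading, at 1.84 and at 1.80 in other immune barcodes. Near-identical class I genes can share reads, so single H2 genes are uncertain.

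Of 22 secretory pathway and unfolded protein response genes 19 were tested, 7 were 2-fold higher and 0 lower, with a median of 0.44, but without the members with stromal transcripts 3 were higher and the median was 0.22. Over all genes the share at least 2-fold higher was 15.9%, and 14.2% without those members. Xbp1, the factor of secretory cells, stood at 1.16 and then 0.28, and Manf, a stress-induced secreted protein, at 1.25 and 0.58. In nuclear-encoded respiratory chain genes, 21 of 22 were tested, with a median of 0.02, 3 genes higher (Cox5a, Cox8a and Cox5b) and 0 lower, and 5 higher without the members with stromal transcripts.

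Hypoxia and glycolysis genes had low ratios in the summed counts. Of 20 genes 11 were tested, 6 were 2-fold lower (10.1% over all genes) and 0 higher, and the median was -1.03. Without the members with stromal transcripts 2 were 2-fold lower (11.3% over all genes), with a median of -0.48 beside -0.13 over all genes. These 2 were Aldoa, at -1.39 (interval -2.21 to -0.39), and Tpi1, at -1.81 (-2.89 to -0.49), from 9 control UMIs. In other immune barcodes they stood at -0.05 and -0.03. The transitional dendritic cell list had a median of -1.43 over 5 genes, and 11 of the 12 control Tmem176a UMIs and 11 of the 16 Cd9 UMIs were in a single barcode. Of 20 immediate early genes 13 were tested, and 2 were higher and 6 lower (15.9% and 10.1% over all genes). Without the members with stromal transcripts 3 were higher and 0 lower (14.2% and 11.3% over all genes). The deepest control barcode held 84 of the 106 control Fos UMIs.

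Of genes lower without the members with stromal transcripts, Cd8b1, a CD8 chain that part of the pDC are known to carry, had the clearest value. It was found in 8 of 12 control and 28 of 68 antibody members, at 0 to 73.6 UMIs per 10000 (median 8.14) and 0 to 29.4 (median 0). The log2 ratio was -2.60 (interval -3.20 to -1.98), or -1.68 with all members. One control barcode held 16 of the 38 control UMIs, and 0.233% and 3.27% of tumour barcodes held one. In T-like barcodes it stood at -0.15. Cd7, a surface protein of lymphoid and pDC lineages, stood at -1.24 (interval -1.97 to -0.39), but at -0.40 (-1.12 to 0.46) with all members, and 9 of its 18 control UMIs were in 1 barcode. The other named lower genes without those members were Selenow, Ablim1, Slc29a3, Pir, Aldoa, Ctsa, Sh3bgrl3, Pip4k2a, Lims1 and Ppfia4, with log2 ratios from -1.65 to -1.22 and 11 to 27 control UMIs each.

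Of 22 surface regulators of pDC 14 were tested and 0 were 2-fold different, with a median of 0.30 (0 higher, 2 lower and -0.48 without the members with stromal transcripts), among them the inhibitory receptor Lair1 at 0.22 and the growth factor receptor Flt3 at 0.45. Of 15 homing genes 9 were tested, 2 were 2-fold higher and 1 lower (15.9% and 10.1% over all genes). The lower one was Ccr2, the receptor for a monocyte-attracting chemokine, with 10 control and 21 antibody UMIs and a log2 ratio of -1.50 (interval -2.62 to -0.22). Of 20 costimulation and checkpoint genes only Lag3, Cd200 and Btla were tested. Lag3, an inhibitory receptor, had 1 and 52 UMIs, a log2 ratio of 2.59 (interval 0.62 to 8.49), and stood at 5.01 in other immune barcodes. Only Hmgb2 and Tubb5 of 20 proliferation genes were tested, and Mki67 appeared in 2 barcodes of 80, both among the deepest.

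**Figure D5:**
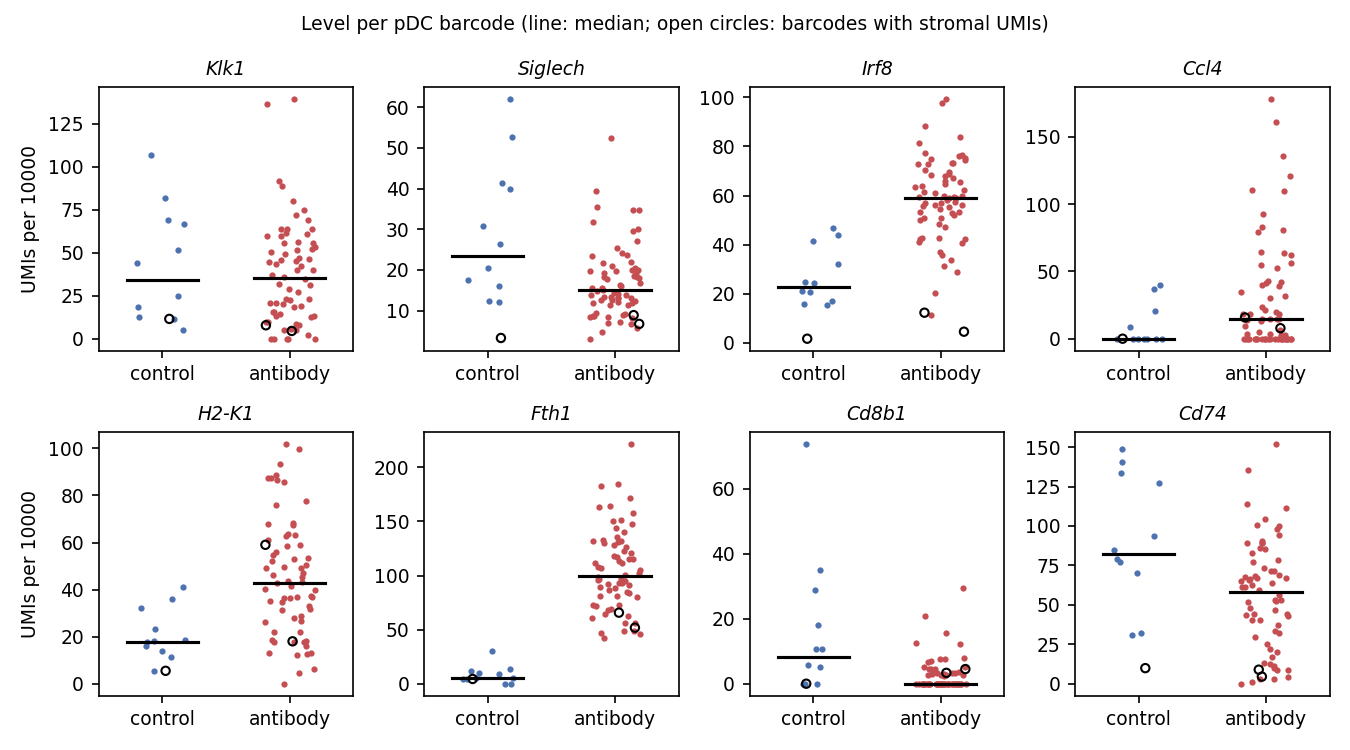
UMIs per 10000 of 8 genes in each pDC barcode, with the control library in blue, the antibody library in red, medians as lines and the members with stromal transcripts as open circles. Fth1 separates the libraries without overlap, Irf8 and Ccl4 overlap in part, Klk1 and Siglech overlap throughout, and Cd8b1 is at 0 in most antibody members.

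Among the 66 antibody members without stromal transcripts, 240 genes were ranked by the ratio of variance to the value that sampling of UMIs alone would give, whose median over genes was 1.38. Slpi had the highest value at 27.99, with 0 to 343 UMIs per 10000 and a median of 16. One barcode held 21.2% of its UMIs, and without it the value was 9.61, below that of Ccl4. Ccl4 followed at 18.4 (16.8 without its top barcode). Klk1 stood at 7.63, Cd74 at 7.09, H2-Aa at 6.43, Klk4 at 5.53 and Isg15 at 5.38. Spp1 stood at 12.3, but 51.7% of its UMIs were in 1 barcode, and without it the value was 0.882. Ly6d, a surface protein of early lymphoid and pDC progenitors, was found in 1 of 12 and 11 of 68 members, and Dntt, the DNA polymerase of lymphoid progenitors, in 5 of 12 and 26 of 68, against 0.053% of control tumour barcodes and 0 of 5294 in the antibody library, which by the same 3 counts allows a share of up to 0.0567% with a UMI.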

How the data were processed

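Single-cell 3' libraries from dissociated CT26 tumours were made with a 10x kit, 1 per group, per the labels' protocols. The deposited values are UMI counts per gene and barcode. The submitters' processing notes name Cell Ranger 7.2.0, Seurat and the build mm10. The members and gene lists were chosen with earlier results of these data known.

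Counts were summed over members and compared as log2 ratios of CPM with 0.5 added to each count, for genes with at least 20 counts over both libraries. Exact 95% intervals cover counting error only. Genes listed in only 1 of the 2 tables were set to 0 in the other. Doublets were not removed, except as an alternative (Scrublet in scanpy 1.11.5). The calculation was tested on simulated sums with counting error only, which cannot show how variation between barcodes affects the intervals. The tools were scipy 1.17.1, numpy 2.4.6, matplotlib 3.10.9, pandas 2.3.3 and Python 3.11.15.

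Genes named in the antibody comparison are the 12 highest and 12 lowest by the interval bound nearest 0, among genes with at least 50 counts, found in at least 10% of the members of 1 library and at least 2-fold different. Genes named against other immune barcodes are the 20 with the highest lesser log2 ratio of both libraries, found in at least 10% of members in both. Mitochondrial, ribosomal, haemoglobin, immunoglobulin, T cell receptor, Y-linked and unnamed gene models were left out of both. List genes are examples, and the genes of the variability ranking were chosen after their values were seen.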

Additional observations from a re-analysis of the deposited data

Results flagged for a closer look

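Among the named genes, 3 were at least 2-fold different between libraries in pDC without the members with stromal transcripts and differed by at least 0.5 (log2) the other way in other immune barcodes. The difference itself was not tested, since each group has 1 library. Cd8b1 stood at -2.60 in pDC and 1.31 in other immune barcodes, but at -0.15 in T-like and 0.61 in remaining immune barcodes. The makeup of the pooled other immune barcodes differed between libraries, and its part in the values of this paragraph was not tested. Ablim1, an actin-binding protein, stood at -1.65 (from 12 control UMIs) and 1.07. Cd7 stood at -1.24 and 0.98. With a smaller value in other immune barcodes, Ccl4 stood at 1.52 and -0.18. Clec12a, a lectin receptor of myeloid cells looked up after its values were seen, stood at -1.36 and 1.45.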

How the results depend on the processing

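The log2 ratio of the immune share was 0.19 on barcodes thinned to 1000 UMIs. The 394 higher and 252 lower genes became 603 and 121 with median-of-ratios scaling, which moved the median of all genes to 0.38, and the share of higher genes among those past 2-fold from 61.0% to 83.3%. They became 763 and 646 with a minimum of 10 counts, 131 and 66 with 50 counts, 1340 and 2911 with no minimum, 157 and 336 with 2 added to each count (31.8% higher), and 458 and 497 on thinned members (48.0% higher). After subtracting the ratio in other immune barcodes they were 287 and 294 (49.4% higher). The 221 pDC genes became 114 with 50 counts and 101 when each immune class was compared alone.

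Of the gene lists, 2 had a median of at least 1 in size. This became 4 with a minimum of 10 counts, 1 with 50 counts, on thinned members or minus other immune barcodes, and 0 with means over members, after Scrublet removal or without the members with stromal transcripts. Tpt1 turned to -0.30 and Cox5a to -1.16 minus other immune barcodes. Without the members with stromal transcripts Ifitm3 turned to 0.42 and Serpinh1 to 0.95 (0.63 after Scrublet removal), both from few control UMIs. Mt2 stood at 2.14 without these members, but no control UMI was left, so the value is no bound and shows no direction. Except for fewer genes under stricter minimums and the removed barcodes, the cause was not tested. Leaving out the members with stromal transcripts, and the Hmga2 condition, were alternatives chosen after seeing the data. No paired analysis was possible because each group has 1 library. With 12 control members, genes of few UMIs cannot be compared at this depth.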
